A study of Homo sapiens with 4 samples.

Results

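The genes that set the stability and activity of p53, and the 2 paralogs of p53, were followed in A375 cells that had lost p53. A375 is a human melanoma cell line. There were 9 such genes, chosen by name for their known roles and found under their symbols among the 26484 gene rows of the deposited table: the ubiquitin ligases MDM2, RCHY1 and RFWD2 (a former symbol of COP1), the MDM2 relative MDM4, the phosphatase PPM1D, the deubiquitinase USP7, the p53-binding protein TP53BP1, and the paralogs TP63 and TP73. Poly(A)-selected RNA was sequenced from 2 libraries of cells in which CRISPR-Cas9 had removed p53 (p53-/-) and 2 libraries of the parental line, which carries wild-type p53. All cells were grown in DMEM and no treatment is listed for either group. The labels do not say whether the knockout line is 1 clone or whether replicate libraries are separate cultures. Each p-value thus reflects library-to-library spread, and how much of that spread is technical is not known. No edited cells that kept p53 were included, so the loss of p53 and the editing and selection of the cells cannot be told apart. RNA was measured, and not the amount or stability of any protein. The knockout libraries are named by the numbers 2 and 8 that the deposited table gives them.

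p53 is a transcription factor that is kept scarce in unstressed cells because ligases, MDM2 foremost, attach ubiquitin to it and send it to the proteasome. Several of these brakes are themselves p53 targets, so that p53 raises the genes that remove it and the circuit is a negative feedback loop. MDM2 has an upstream promoter that works without p53 and a second promoter in its first intron that carries p53 response elements. TP73 likewise has an upstream promoter, controlled by E2F factors, that gives the full-length activator, and an internal promoter that p53 and p73 can activate and that gives an inhibitory form without the activation domain. Melanomas with wild-type p53 often hold it in check through MDM4.

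Promoter windows of 300 bases were taken from RefSeq (GRCh38.p14), 250 bases before to 50 bases after each start, for all 9 genes (19 windows). They are shown for MDM2 and TP73 because each of these genes combines a start with a match to the p53 response element and a start without one. The response element was searched as a repeat of the 10-base p53 unit, 20 bases without a spacer, with at most 3 letters off, a pattern that reads the same on both strands; 5.2% of all 35116 promoter windows in the table hold such a match. E2F sites were searched as TTTCCCGC, TTTCGCGC, TTTGCCGC and TTTGGCGC on both strands, and 3.31% of the windows hold one. In the upstream window of MDM2 (chr12:68807922-68808221, plus strand) and of TP73 (chr1:3652266-3652565, plus strand), capitals mark an E2F match on the minus strand. In the MDM2 window that starts 0.845 kb further on (chr12:68808767-68809066, plus strand) and in the TP73 window that starts 38.2 kb further on (chr1:3690422-3690721, plus strand), capitals mark the p53 matches.
MDM2 upstream: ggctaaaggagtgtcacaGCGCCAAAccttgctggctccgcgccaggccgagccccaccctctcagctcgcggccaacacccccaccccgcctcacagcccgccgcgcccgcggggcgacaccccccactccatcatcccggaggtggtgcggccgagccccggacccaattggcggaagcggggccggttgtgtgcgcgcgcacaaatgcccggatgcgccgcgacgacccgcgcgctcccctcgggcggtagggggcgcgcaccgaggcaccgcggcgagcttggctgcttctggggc
MDM2 intronic: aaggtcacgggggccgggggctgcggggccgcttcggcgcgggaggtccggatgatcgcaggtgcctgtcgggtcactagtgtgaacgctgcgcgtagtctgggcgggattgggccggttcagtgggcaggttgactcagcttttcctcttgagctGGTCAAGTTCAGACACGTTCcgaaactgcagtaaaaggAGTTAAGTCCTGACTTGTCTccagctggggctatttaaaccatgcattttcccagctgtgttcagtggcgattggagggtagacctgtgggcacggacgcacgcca
TP73 upstream: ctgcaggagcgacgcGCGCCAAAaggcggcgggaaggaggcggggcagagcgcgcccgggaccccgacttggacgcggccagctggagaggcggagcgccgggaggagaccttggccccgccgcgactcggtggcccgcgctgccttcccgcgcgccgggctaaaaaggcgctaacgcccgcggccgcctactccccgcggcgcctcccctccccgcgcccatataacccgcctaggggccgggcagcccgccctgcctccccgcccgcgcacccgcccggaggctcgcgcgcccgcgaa
TP73 internal: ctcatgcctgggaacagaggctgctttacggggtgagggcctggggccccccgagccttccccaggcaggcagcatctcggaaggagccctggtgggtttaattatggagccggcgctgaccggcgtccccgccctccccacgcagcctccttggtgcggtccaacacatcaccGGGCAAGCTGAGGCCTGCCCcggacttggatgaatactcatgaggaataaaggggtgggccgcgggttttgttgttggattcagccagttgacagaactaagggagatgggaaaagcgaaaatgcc
The 2 matches in the intronic MDM2 window were off by 2 and 3 letters, and the match in the internal TP73 window by 2. Another MDM2 window, 7 bases further on, repeats the intronic pair. A further upstream MDM2 window, which overlaps the first, repeats its E2F match. No other window of the 9 genes held a p53 or an E2F match, which says only that these letters are not in those windows. The deposited values are sums per gene, so the RNA of the upstream and internal starts cannot be told apart in what follows.

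Recovered reads per library ranged from 29230554 to 36331894. Melanocyte lineage markers fitted the cell line in part: SOX10 had 25662 to 30033 normalized counts and S100B 1428 to 2138 across the libraries, while the pigmentation genes MLANA and TYR were at 0 in all 4. Of the markers of other cell types, CDH1 and DSG3 of epithelium and HBB of blood were also at 0 in all 4. Other epithelial genes were well expressed, KRT18 at 5569 to 6548 normalized counts, PERP at 3047 to 3925, KRT8 at 926 to 1208 and ITGB4 at 129 to 231. The 8 melanocyte markers summed to 34044 and 33256 in the knockout libraries against 39756 and 38772 in the parental ones, most of it SOX10. Of the 5 tested, 4 had both knockout libraries below both parental ones, where 23.7% of all genes tested did. MITF, the lineage regulator, had 849 and 1050 in the knockout libraries against 1645 and 1562 in the parental ones, and was the one marker called (DESeq2 adjusted p = 0.00272; limma 0.237). PMEL, a low gene here, stood the other way, at 55.8 and 36.1 in the knockout libraries against 28.5 and 28.1 in the parental ones. The part of these marker differences in the results below was not tested. In bulk RNA of a cell line, fewer cells that express a gene and less of its RNA per cell cannot be told apart. Summed over 10 epithelial genes the level was 10621 and 10879 in the knockout libraries and 10987 and 10914 in the parental ones. Of the 5 epithelial genes tested, 3 had both knockout libraries lower and 1 had both higher. Over all genes tested the shares were 23.7% lower and 22.8% higher. The 6 fibroblast genes summed to 1303 and 1016 in the knockout libraries against 998 and 1015 in the parental ones. DDB2 is a p53 target that recognises damaged DNA. It had 1019 and 1138 normalized counts in knockout libraries 2 and 8 against 2094 and 2126 in parental libraries 1 and 2. Limma did not call DDB2 (adjusted p = 0.169), while DESeq2 did (adjusted p = 3.46e-08). DDB2 and CDKN1A were picked with earlier results of these data known. The best known target, CDKN1A, had 4898 and 2603 in the knockout libraries, which lay on either side of the 3561 and 3889 in the parental ones. Between the knockout libraries the chi-square per degree of freedom was 61.6, and between the parental libraries it was 5.57, both above sampling noise. A limma fit to all 4 libraries pools the wider spread of the knockout pair with the narrower spread of the parental pair.

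Among the genes that could be tested, most differences that went with the loss of p53 were small. A normalized count is a gene's reads divided by 1 factor per library, and genes were tested with limma on log2(normalized count + 1) where at least 2 libraries reached 10. This left 8 of the 9, all but TP63. None of the 8 was called at an adjusted p of 0.05, where limma called 0% of the 15431 genes tested, and DESeq2 on the recovered reads likewise called 0 of the 8, against 2.44% of the genes to which it gave an adjusted p (1.21% higher and 1.22% lower). Before adjustment limma had 2 of the 8 under 0.05, TP73 and TP53BP1, both higher, against 12% of all genes. In 4 of the 8 both knockout libraries lay beyond both parental libraries, 2 above and 2 below, and the same held for 46.4% of all genes tested. The share of the 8 is thus close to that of all genes. The median size of the log2 fold change was 0.11 over the 8 genes and 0.16 over all genes tested. The largest of the 8, TP73 at 0.42, was above the upper quartile of all genes tested (0.33). For any 1 gene in this design the smallest p of a two-sided exact permutation test is 0.333.

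**Figure D1:**
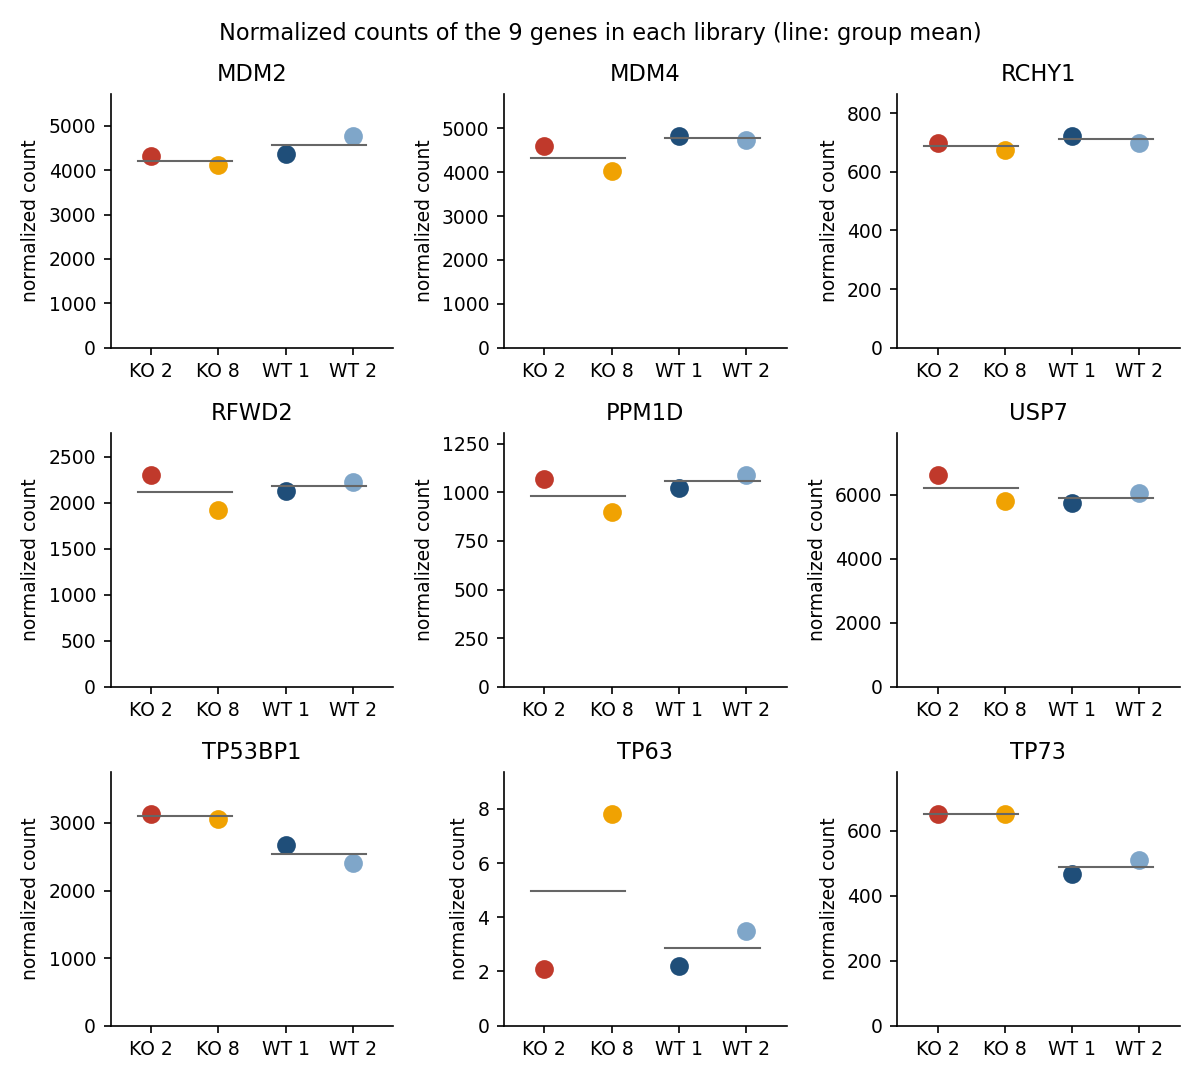
Normalized count (y axis, from 0) of each of the 9 genes in knockout libraries 2 and 8 (KO) and parental libraries 1 and 2 (WT), with a line at each group mean. TP73 and TP53BP1 sit higher in both knockout libraries, MDM4 and MDM2 sit slightly lower, and TP63 stays under 8 normalized counts in every library.

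MDM2, the ligase that binds p53 and marks it for destruction, lies on chromosome 12 from 68808176 to 68850686 on the plus strand (GENCODE 29, GRCh38). It had 4325 and 4111 normalized counts in knockout libraries 2 and 8, against 4359 and 4775 in parental libraries 1 and 2. Both knockout libraries were below both parental ones, but knockout library 2 and parental library 1 were nearly equal, and with upper-quartile factors in place of the deposited ones the groups overlapped. The means were 4218 ± 152 in the knockout and 4567 ± 294 in the parental line (SD, n = 2 each), a log2 fold change of -0.11 ± 0.09 (SE; limma adjusted p = 0.639). The 95% interval of the fold change ran from 0.789 to 1.08. The interval rests on 2 libraries per group, so it does not exclude a fall below 0.789-fold. Without parental library 1 the log2 fold change of MDM2 was -0.18.

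MDM4, which resembles MDM2, pairs with it and blocks the activation domain of p53 without being an efficient ligase itself, lies on chromosome 1 from 204516379 to 204558120 on the plus strand. It had 4597 and 4030 normalized counts in knockout libraries 2 and 8, against 4826 and 4737 in the parental libraries. Knockout library 8 was the low one, at 87.7% of knockout library 2. The log2 fold change was -0.15 ± 0.09 (limma adjusted p = 0.573), with a 95% interval of 0.757 to 1.07 for the fold change. Without knockout library 2 the log2 fold change of MDM4 was -0.25, and without knockout library 8 it was -0.057. Each of these fits has 1 knockout library, which is assumed to vary like the parental pair.

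The other ligases were close to level between the groups. RFWD2, a ligase that targets p53 and several transcription factors, lies on chromosome 1 from 175944831 to 176207493 on the minus strand. It had 2303 and 1926 normalized counts in knockout libraries 2 and 8, which enclosed the 2128 and 2228 of the parental libraries. Its log2 fold change was -0.05 ± 0.11 (limma adjusted p = 0.882) and was 0.081 without knockout library 8. RCHY1, the ligase also called PIRH2, on chromosome 4 from 75479037 to 75514764, had 700 and 676 in the knockout libraries against 723 and 699 in the parental ones. All 4 values of RCHY1 lay within a narrow band, and its log2 fold change was -0.05 ± 0.10 (limma adjusted p = 0.869).

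PPM1D, the phosphatase WIP1 that removes activating phosphates from p53 and from the kinases upstream of it, lies on chromosome 17 from 60600183 to 60666280. It had 1068 and 897 normalized counts in knockout libraries 2 and 8, against 1023 and 1090 in the parental libraries. Knockout library 8 was the lowest of the 4, while knockout library 2 lay between the parental values. The log2 fold change was -0.11 ± 0.12 (limma adjusted p = 0.744), and it was 0.016 without knockout library 8. USP7, the deubiquitinase that takes ubiquitin off both p53 and MDM2, on chromosome 16 from 8892094 to 8964514, had 6626 and 5793 against 5757 and 6065. Here knockout library 2 was the highest and knockout library 8 lay between the parental values. The log2 fold change of USP7 was 0.07 ± 0.10 (limma adjusted p = 0.803), and it was -0.029 without knockout library 2.

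TP53BP1 encodes 53BP1, which binds p53 and is best known for steering the repair of DNA double-strand breaks towards end joining. It lies on chromosome 15 from 43403061 to 43510728 on the minus strand. It had 3135 and 3065 normalized counts in knockout libraries 2 and 8, against 2668 and 2405 in the parental libraries. Both knockout libraries were above both parental ones, and they differed from each other less than the parental libraries did. The means were 3100 ± 50 and 2536 ± 186 (SD, n = 2 each), so the knockout mean was 22.2% higher, with a log2 fold change of 0.29 ± 0.09 (95% interval 0.06 to 0.52). Adjusted over all genes this was not called (limma adjusted p = 0.346, edgeR 0.349, DESeq2 0.417).

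Of the 2 paralogs, TP73 was clearly detected and TP63 was close to absent from the reads. TP73, on chromosome 1 from 3652520 to 3736201 on the plus strand, had 651 and 652 normalized counts in knockout libraries 2 and 8, against 468 and 510 in the parental libraries. Its knockout values were almost equal and both lay above the parental ones. The knockout mean was 33.3% higher, with a log2 fold change of 0.42 ± 0.11 (95% interval 0.12 to 0.71), the largest of the 8 genes tested. It was not called over all genes (limma adjusted p = 0.319, edgeR 0.311, DESeq2 0.342). TP63, a master regulator of stratified epithelium on chromosome 3 from 189631416 to 189897279, had 2 and 8 reads in knockout libraries 2 and 8, and 2 and 4 reads in the parental libraries. At this depth no difference in TP63 was detectable, and the gene fell under the count filter of the test.

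**Figure D2:**
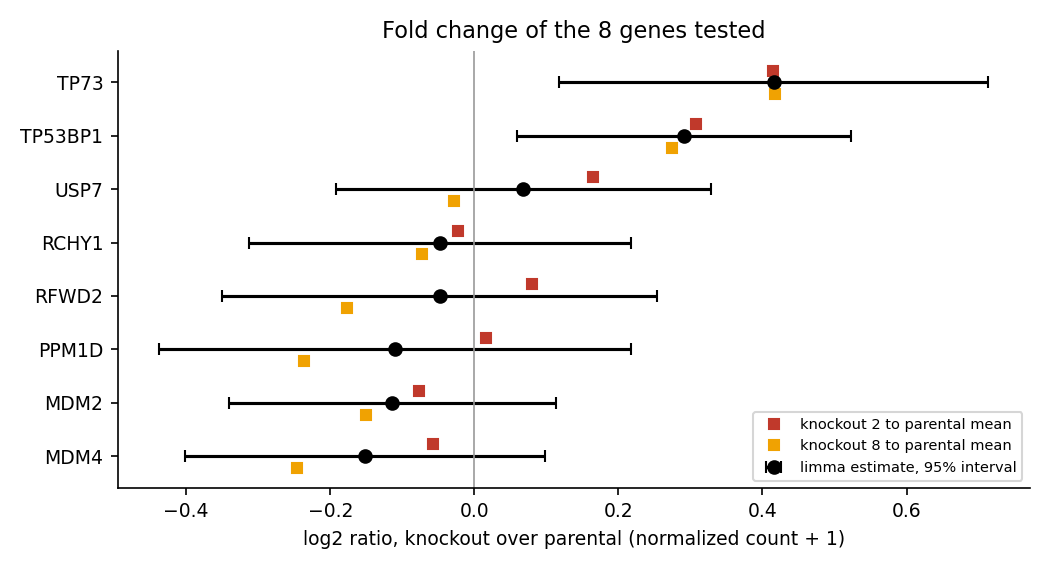
Log2 ratio of knockout over parental on the log2(normalized count + 1) scale for the 8 genes tested. Black points are limma estimates with 95% intervals, and squares are the ratio of each knockout library to the parental mean. The intervals of TP73 and TP53BP1 lie above 0 and the other 6 include 0, while the knockout libraries fall on opposite sides of 0 for USP7, RFWD2 and PPM1D.

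The results of TP73 and TP53BP1 depended on which library was left out. Without knockout library 2 both were called, at log2 fold changes of 0.42 for TP73 (limma adjusted p = 0.0149) and 0.27 for TP53BP1 (0.0174), in a fit that called 20.5% of all genes. Without knockout library 8 both were called again, at 0.41 for TP73 (0.011) and 0.31 for TP53BP1 (0.00622), in a fit that called 33.8% of all genes. Each of these fits has 1 knockout library, so its p rests on the spread of the parental pair and carries no replicate check of the knockout. Without parental library 1 or parental library 2, neither was called and 0% of all genes was. Their log2 fold changes then were 0.35 and 0.48 for TP73, and 0.37 and 0.22 for TP53BP1.

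To order the genes by level, normalized counts were divided by the length of their merged exons in GENCODE 29. USP7 had the highest level, at 779 ± 74 normalized counts per kb in the knockout and 742 ± 27 in the parental line (SD, n = 2 each). RFWD2 followed with 482 ± 61 and 497 ± 16, MDM4 with 391.8 ± 36 and 434 ± 6, and MDM2 with 318 ± 11 and 344 ± 22. The lowest RFWD2 library and the highest MDM4 library were nearly equal (439 and 438), and so were the lowest MDM4 and the highest MDM2 library (366 and 359), so these neighbours were barely apart. PPM1D, at 195 ± 24 and 209 ± 9, and TP53BP1, at 239 ± 4 and 195 ± 14, overlapped and stood in a different order in the 2 groups. RCHY1, at 105 ± 3 and 108 ± 3, lay above TP73, at 96.4 ± 0.1 and 72.3 ± 4.3. TP63 had less than 1.1 per kb in every library. Among the genes tested that have 1 locus in the annotation, USP7 stood at percentile 84.7 and TP73 at percentile 33.2 of the mean level per kb. The exon length counts every annotated isoform, so it can exceed the length of the RNA that A375 cells make.

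**Figure D3:**
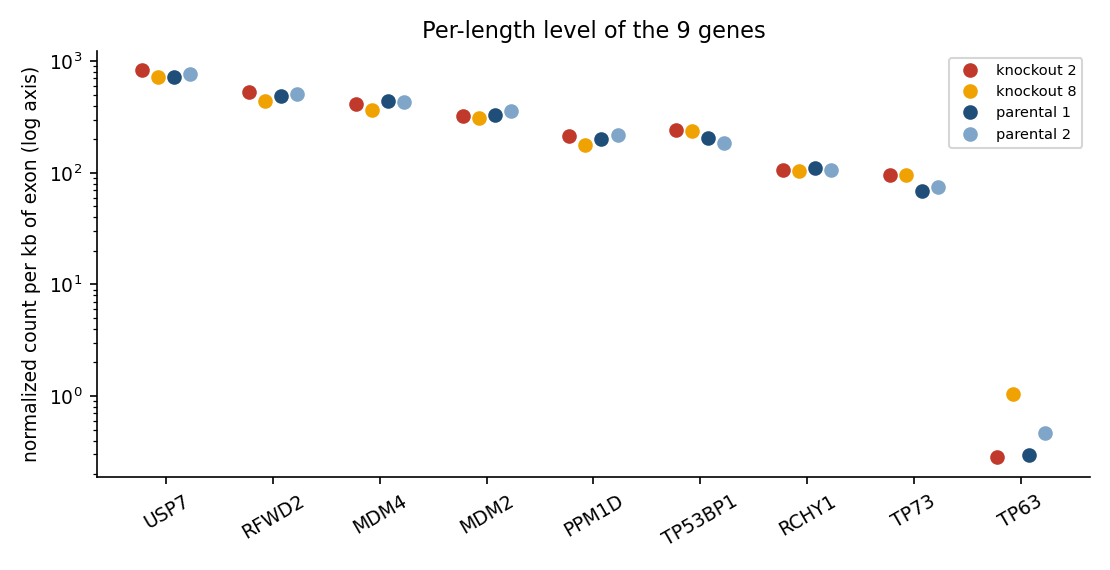
Normalized count per kb of merged exon (y axis, log scale) of the 9 genes in the 4 libraries, in order of the parental mean. Levels run from USP7 at over 722 down to TP73 at 69.2 to 96.5, and TP63 lies far below the rest, at no more than 1.05.

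The differences between the knockout libraries had a local pattern on chromosome 1. For each of the 9 genes, the 40 nearest genes with a mean normalized count of at least 100, 20 on each side, were compared with the parental mean. Around MDM4 (a window of 4.28 Mb) these neighbours had a median log2 ratio of 0.01 in library 2 of the knockout and of -0.33 in library 8, where 37 of the 40 were below 0. MDM4 itself stood at -0.06 and -0.25 in the same libraries. Around RFWD2 (12.98 Mb) the neighbours had medians of 0.08 and -0.27, with 36 of 40 below 0 in knockout library 8, and RFWD2 stood at 0.08 and -0.18. Both genes were thus low in knockout library 8 by no more than the genes beside them. The part that this played in their difference was not tested.

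No such shift surrounded the other 7 genes, in that the middle 50% of their neighbours spanned 0 in both knockout libraries. This criterion was set after the values were seen. In knockout library 8 the neighbours of RCHY1 came near its limit, with 12 of 40 below 0. Their median was 0.12 and their lower quartile -0.02, while RCHY1 itself stood at -0.07. PPM1D stood at -0.24 in knockout library 8 while its neighbours had a median of 0.00. MDM2 stood at -0.08 and -0.15 in knockout libraries 2 and 8, with neighbours at 0.00 in both. TP53BP1 stood at 0.31 and 0.27 with neighbours at -0.05 and 0.03, and TP73, on the other arm of chromosome 1 from MDM4, stood at 0.41 and 0.42 with neighbours at 0.04 and 0.05. TP73 and TP53BP1 thus stood above the median of their neighbours in both knockout libraries.

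**Figure D4:**
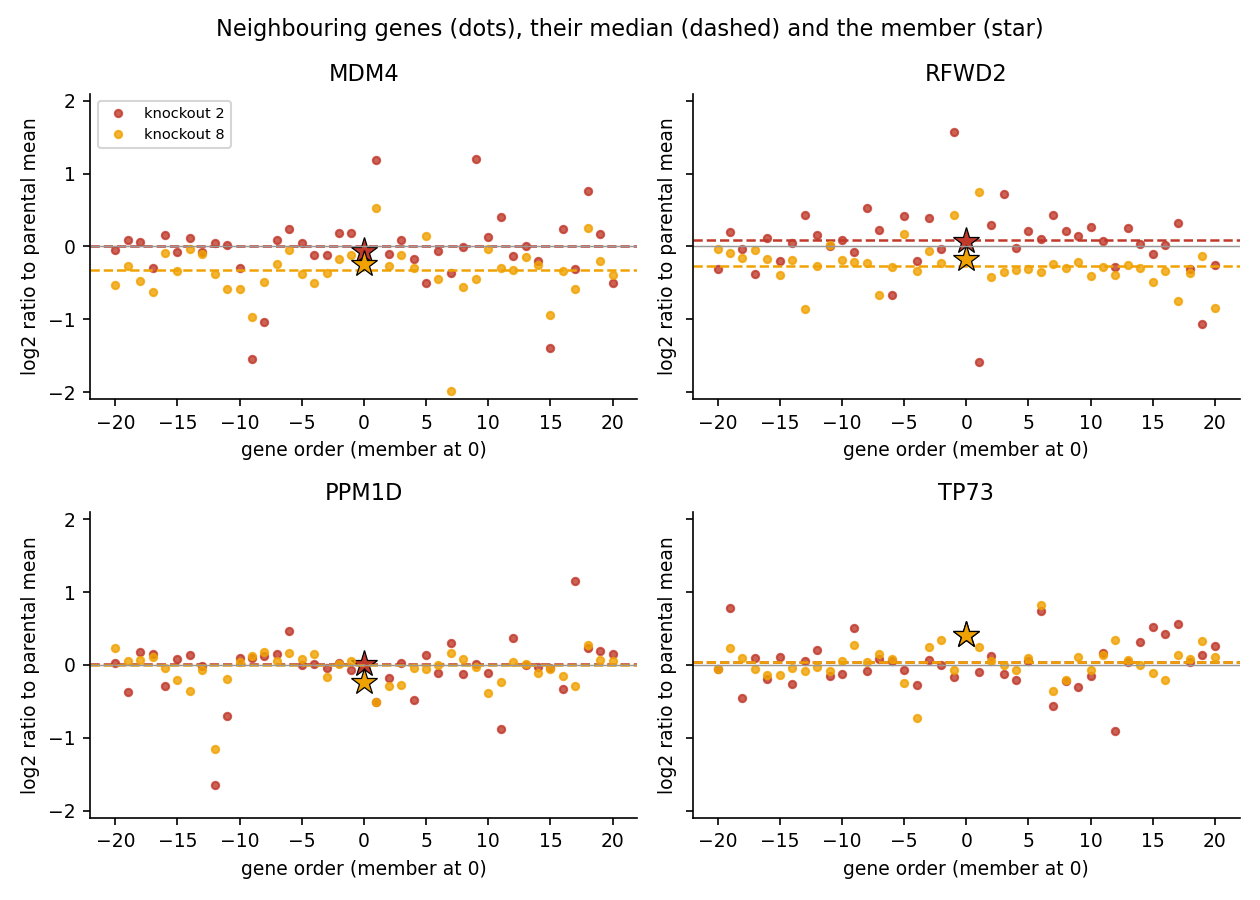
Log2 ratio to the parental mean (y axis) of the 40 nearest genes, in gene order (x axis), around MDM4, RFWD2, PPM1D and TP73 in knockout libraries 2 and 8. Dashed lines are the medians of the neighbours and stars are the named gene. In knockout library 8 the neighbours of MDM4 and RFWD2 lie mostly below 0 (medians -0.33 and -0.27), while TP73 lies above its neighbours in both libraries.

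MDM2, MDM4, PPM1D and RFWD2 were also set beside the genes whose profile over the 4 libraries was most like theirs, by the root mean square difference in log2(normalized count + 1) after centring on the parental mean. Of 12275 genes with a mean of at least 100, PGD, LYPLA1 and ZUFSP were nearest to MDM2 (0.01 on the log2 scale for each, against a median gene at 0.17). DENND6A, FBXO46 and LPIN2 were nearest to MDM4, and DYNC1LI1, TBK1 and AGA to PPM1D. For RFWD2 they were TBCE, PRDX6 and CEP295. PRDX6 also lies on chromosome 1, among the 40 neighbours of RFWD2 used above, and TBCE was given no position here. PRDX6 had 10730 and 8833 normalized counts in the knockout libraries against 9800 and 10350 in the parental ones. With 4 libraries such likeness is a description only.

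Among 7 genes of p53 negative feedback (MDM2, RFWD2, RCHY1, PPM1D, TP73, the cyclin CCNG1 and the ligase SIAH1), limma called 0. Over all genes tested limma likewise called 0%. DESeq2 called 1 lower and 0 higher, against 1.22% of all genes called lower. The one called was CCNG1, cyclin G1, which recruits a phosphatase to MDM2, with 5070 and 4882 normalized counts in knockout libraries 2 and 8 against 6997 and 6572 in the parental libraries. Its log2 fold change was -0.45 ± 0.08 (limma adjusted p = 0.243, DESeq2 adjusted p = 0.0149). SIAH1 had 988 and 902 against 863 and 848, and its groups did not overlap (limma adjusted p = 0.613). The median log2 fold change of the 7 was -0.05, and -0.01 over all genes tested. Neither test called the other 6.

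The wider set of proteins that act on p53 gave no call either. Over all genes, limma called 0% of those tested and DESeq2 2.44% of those to which it gave an adjusted p. Limma and DESeq2 called 0 of 23 other ligases and cofactors, 0 of 14 other deubiquitinases tested, 0 of 21 kinases and phosphatases tested, 0 of 16 enzymes of p53 acetylation and methylation, 0 of 13 inhibitors of MDM2, 0 of 10 partners of 53BP1 in repair and 0 of 3 members of the ASPP family. At an unadjusted limma p under 0.05 the kinases and phosphatases had 1 higher and 3 lower, the inhibitors of MDM2 had 2 higher, and the ASPP family had 1 lower, with 0 in the other lists. The shares of all genes at that p were 5.85% higher and 6.16% lower. The median log2 fold changes of these lists ran from -0.04 to 0.08.

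Among the ligases, CUL9, a cytoplasmic p53-binding ligase, had 1286 and 1187 normalized counts in the knockout libraries against 1523 and 1347 in the parental ones, and SYVN1, a ligase of the endoplasmic reticulum, had 3038 and 3309 against 2877 and 2660. Among the deubiquitinases, USP11 had 12730 and 11292 against 11171 and 10240, and OTUD1 had 244 and 271 against 299 and 281. These 4 genes were among the most distant of their lists whose groups did not overlap, and their limma adjusted p ran from 0.478 to 0.677. USP2, a deubiquitinase of MDM2, had 194 in knockout library 2 alone, against 63.5 in knockout library 8 and 63.6 and 76.3 in the parental libraries.

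Among the kinases, ATM, which signals DNA breaks to p53, had 2904 and 4276 normalized counts in knockout libraries 2 and 8 against 5280 and 4652 in the parental ones (log2 fold change -0.49 ± 0.21, limma adjusted p = 0.444). Both knockout libraries were below both parental ones, knockout library 2 by far the more. GSK3B, which phosphorylates MDM2, had 8543 and 7348 against 10472 and 10049 (-0.37 ± 0.10, adjusted p = 0.324). PLK3, a stress kinase that phosphorylates p53, had 580 and 744 against 509 and 451 (0.46 ± 0.17, adjusted p = 0.406). The phosphatase subunit PPP1CA had 5294 and 4896 against 4491 and 4839.

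Among the inhibitors of MDM2, CDKN2A, whose ARF product sequesters MDM2, had 184 and 169 normalized counts in the knockout libraries against 310 and 222 in the parental ones (log2 fold change -0.57 ± 0.22, limma adjusted p = 0.422). Counts per gene do not separate ARF from p16, the other product of that gene. NUMB, which binds MDM2 and p53, had 2738 and 2526 against 2154 and 2085 (0.31 ± 0.08, adjusted p = 0.317), and DAXX, a partner of MDM2 and USP7, had 3251 and 3165 against 2700 and 2723 (0.24 ± 0.07, adjusted p = 0.345). In both genes the knockout libraries lay above the parental ones, and neither was called.

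Of the modifying enzymes, the acetyltransferase KAT5 had 1296 and 1472 normalized counts in the knockout libraries against 1559 and 1581 in the parental ones, and the deacetylase HDAC1 had 7707 and 7607 against 6518 and 7030. Of the repair partners of 53BP1, the shieldin subunit SHLD1 had 132 and 172 against 207 and 208, and the histone H2AX had 5939 and 3821 against 3228 and 3631. MAD2L2, also of shieldin, had 1444 and 1522 against 1600 and 1616. PPP1R13B, the p53 cofactor ASPP1, had 510 and 481 against 646 and 668 (log2 fold change -0.41 ± 0.11, limma adjusted p = 0.319). Of the 10 partners of 53BP1 tested, 2 lay above and 2 below the parental libraries without overlap, where 22.8% of all genes tested lay above and 23.7% below.

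**Figure D5:**
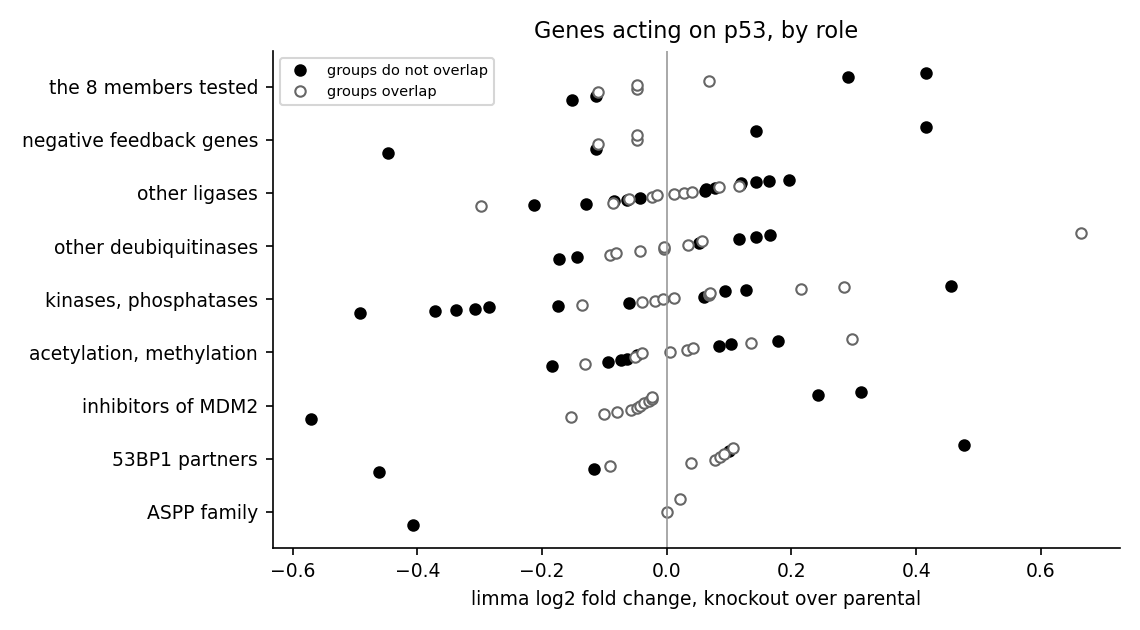
Limma log2 fold change (x axis, knockout over parental) of each tested gene in the lists of genes acting on p53. Filled points are genes whose knockout libraries lie beyond both parental libraries, and open points are genes whose groups overlap. List medians lie near 0, and CCNG1 at -0.45 and TP73 at 0.42 stand at the ends of the feedback list.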

How the data were processed

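RNA was poly(A)-selected and sequenced from a directional library kit. The deposited table holds a normalized signal for each gene: the authors scaled the read counts of a library by a single number, a step inferred from the values. Dividing by that number's step gave whole reads to within 0.001 for 100% of values, and the scaling equalled median-of-ratios size factors. The submitters' processing notes name STAR, Picard, HTSeq, DESeq2, deepTools and hg38. Their versions, the annotation, the strand setting and the handling of multi-mapped reads were not stated in the sources used here, so overlapping genes are uncertain. The knockout columns do not carry the labelled replicate numbers and were used as members of their group.

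Limma 3.58.1 with a trend was fitted to log2(normalized count + 1) over the 15431 genes reaching 10 in 2 or more libraries, two-sided, with Benjamini-Hochberg adjustment at 0.05. Alternatives were edgeR 4.0.16 (quasi-likelihood, TMM), DESeq2 1.42.0 (all rows, its own filter) and limma-voom on the recovered reads, a pseudocount of 0.1, other filters, upper-quartile factors and leaving out each library. The tests were tried on simulated data. Positions and exon lengths come from GENCODE 29. The members, lists and tests were chosen with earlier results of these data known. Named list genes are those called and otherwise the 2 highest and 2 lowest fold changes without overlap between groups, given in part. USP2 was chosen after its values were seen. The motifs were chosen after the MDM2 and TP73 windows had been read: exact p53 repeats were tried first and gave no match in the members' windows, the limit of 3 letters was set after that, and a cyclic AMP response element was also searched and left out. Nothing is drawn from the matches. Results for the targeted gene are not reported here.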

Additional observations from a re-analysis of the deposited data

How the results depend on the processing

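Under the 7 settings that kept all libraries, each of the 8 tested genes kept its direction and stayed uncalled (56 of 56 values, adjusted p 0.306 to 0.998). Over all genes the count of calls was 0 by limma, against 398 by DESeq2. Limma had 1853 genes at an unadjusted p under 0.05 and edgeR, which also called 0, had 1867. Leaving out 1 library gave 0 to 5149 calls over all genes (3117 without knockout library 2, 5149 without knockout library 8) and 0 to 3 among the 8. The number of the 8 genes whose groups did not overlap was then 5 to 7, and the share of all genes tested that did not overlap was 81.1% without knockout library 2, 86% without knockout library 8, 60.7% without parental library 1 and 65.1% without parental library 2. The log2 fold change without 1 library ran from -0.18 to 0.081 for RFWD2, -0.24 to 0.016 for PPM1D and -0.029 to 0.17 for USP7. These 3 changed sign, RFWD2 and PPM1D without knockout library 8 and USP7 without knockout library 2, and the cause was not tested, while TP73 stayed between 0.35 and 0.48 and MDM2 between -0.18 and -0.05. The neighbours of MDM4 and RFWD2 in knockout library 8 stayed below 0 with 20 neighbours, with a lower minimum level and against each parental library alone (medians of MDM4's neighbours -0.33 to -0.30). With the lower minimum level the neighbours of RFWD2 in knockout library 2 also stood apart from 0, above it. No paired analysis was possible because the knockout libraries are numbered 2 and 8 in the table and cannot be matched to the labelled replicates.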

Other observations

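MDM2 and MDM4 act as a pair, and their relative RNA level was set side by side as normalized counts per kb. MDM2 stood at 0.78 and 0.845 of MDM4 in knockout libraries 2 and 8, and at 0.748 and 0.835 in parental libraries 1 and 2. The knockout values lay on both sides of parental library 2, and the values of the groups overlapped.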
